A study of Rattus norvegicus with 294 samples.

Results

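The genes that drive DNA replication and cell division were followed in laser-captured bone cells of rats given an antibody against sclerostin. Of a list of 40 such genes, 38 were measured, out of 14217 genes on the arrays. They were split by the phase in which they act into 13 of 15 G1/S genes and 25 of 25 G2/M genes. The measured G1/S genes were Tk1, Pcna, Tyms, Rrm1, Mcm2, Mcm3, Mcm4, Mcm5, Mcm6, Mcm7, Ccne1, Rpa3 and Mybl2. The G2/M genes were Mki67, Top2a, Ccna2, Ccnb1, Ccnb2, Cdk1, Cdc20, Bub1, Bub1b, Plk1, Aurka, Aurkb, Birc5, Kif11, Kif20a, Kif23, Prc1, Cdkn3, Ube2c, Nusap1, Cks2, Racgap1, Foxm1, Ttk and Ect2. Each gene was read from the probe set, annotated to that gene alone, with the highest mean. Rrm2 and Cdc6 had no such probe set and were left out.

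The rats were female Sprague-Dawley animals ovariectomized at 6 months of age and left untreated for 8 weeks. This is a model of bone loss without ovarian hormones. Every group, vehicle included, was ovariectomized and received the bone label calcein. The sclerostin antibody (Scl-Ab), modified to provoke less of an immune response in rats, was injected under the skin once a week at 3 or 50 mg/kg, and control rats received its vehicle, up to day 183. Groups on days 8, 29, 85 and 183 were vehicle, 3 mg/kg and 50 mg/kg. After dosing had ended, rats earlier given 3 mg/kg were compared with vehicle rats on days 197 and 267, and rats earlier given 50 mg/kg with vehicle rats on days 237 and 309. Laser capture of the third lumbar vertebra gave material from up to 5 rats a group, within a cell type each array a different rat, enriched for osteoblasts (97 arrays), bone lining cells (100 arrays) and osteocytes (97 arrays). There were 5 arrays in each of 55 groups, 4 in 4 groups and 3 in the 50 mg/kg osteocytes of day 85. The 3 cell types were captured from the same rats, which the labels do not name, so every comparison between cell types treats arrays that share a rat as separate.

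Cells that enter division first switch on the genes for nucleotide supply, for the helicase and clamp of the replication fork, and for cyclin E, under E2F factors. Genes for the mitotic cyclins, the spindle and cytokinesis follow in G2, under B-Myb and FoxM1. In bone, osteocytes and lining cells are regarded as non-dividing, osteoblast precursors divide, and the blood-forming cells of the neighbouring marrow divide heavily, so that in captured material their RNA can also come from cells next to the target cells. Levels below are array signals (linear intensities), changes are log2 fold changes with their standard error (SE), and a gene is said to rise or fall where limma's Benjamini-Hochberg adjusted p, over all genes tested in the cell type, was under 0.05. In such bulk samples fewer cells of a type and less RNA per cell cannot be told apart.

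Each array also has a signal range, the 90th minus the 50th percentile of its log2 values, which ran from 2.55 to 3.69 in osteoblasts, from 2.43 to 3.54 in lining cells and from 2.46 to 3.44 in osteocytes. Marker lists were averaged per array on the log2 scale: 6 of 8 osteoblast markers, 7 of 7 osteocyte markers and, for marrow, 12 of 15 erythroid, 7 of 14 granulocyte, 4 of 11 B-lineage and 7 of 7 megakaryocyte markers were on the array, as were 4 of 8 osteoclast markers. In vehicle arrays the osteocyte markers averaged 5.29 in osteocytes, 4.21 in osteoblasts and 3.72 in lining cells. The osteoblast markers did not set the osteoblast arrays apart from osteocytes, at 8.53 in osteoblasts and 9.17 in osteocytes. In lining cells they were lower, at 7.25. Erythroid markers were present in all 3 cell types, with means of 9.11 in osteoblasts, 8.63 in lining cells and 7.80 in osteocytes, and no value of any array was 0. These marker means are on the deposited scale, where the cell types appear to have been normalized apart. On it the median over all genes was 0.67 higher in osteoblasts than in osteocytes, and marker differences between cell types carry such offsets.

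The promoters of 31 of the 38 genes were available from RefSeq (rat build GRCr8), and 4 are shown, 2 of each class, to show the motifs in place. Cdk1 holds all 3, Top2a the first and second, and Mcm3 and Mcm5 the first and last. Capitals mark 3 motifs, on either strand. The first is CCAAT, which reads ATTGG on the other strand. Next is a form of the cell cycle homology element, searched as TTTGAA or with the middle changed as TTCGAA. The E2F core was searched in 4 spellings. The usual one is TTCCCGC. With a G in the middle it is TTCGCGC. Of the spellings with a G as the third base, one is TTGCCGC, and the last, with G at both places, is TTGGCGC. Matches may overlap. Each run is the 250 bases before the start of the gene, on the gene's strand, and the last match in Mcm3 runs on past it. Top2a, which untangles chromosomes before mitosis, lies on the minus strand at chr10:84473094-84473343, and Cdk1, the kinase that starts mitosis, on the plus strand at chr20:19265043-19265292. Mcm3 and Mcm5, helicase subunits, lie at chr9:30733747-30733996 on the minus strand and at chr19:13488563-13488812 on the plus strand. In the Mcm5 run a TTCGCGC and a reversed TTGGCGC overlap.
Top2a: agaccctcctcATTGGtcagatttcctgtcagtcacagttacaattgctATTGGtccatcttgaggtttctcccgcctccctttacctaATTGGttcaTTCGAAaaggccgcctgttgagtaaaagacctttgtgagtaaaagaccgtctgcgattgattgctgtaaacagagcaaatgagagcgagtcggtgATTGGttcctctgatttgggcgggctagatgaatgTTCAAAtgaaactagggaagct
Cdk1: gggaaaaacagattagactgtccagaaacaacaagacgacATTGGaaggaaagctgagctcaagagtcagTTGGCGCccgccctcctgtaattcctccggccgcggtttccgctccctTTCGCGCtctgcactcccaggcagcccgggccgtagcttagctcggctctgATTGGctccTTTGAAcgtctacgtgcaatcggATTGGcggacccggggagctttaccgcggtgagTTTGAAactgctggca
Mcm3: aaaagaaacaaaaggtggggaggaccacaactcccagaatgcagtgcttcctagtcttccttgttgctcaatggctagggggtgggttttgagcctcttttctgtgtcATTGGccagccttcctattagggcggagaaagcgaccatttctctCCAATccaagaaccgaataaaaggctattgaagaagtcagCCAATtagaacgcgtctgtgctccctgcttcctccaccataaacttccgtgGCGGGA
Mcm5: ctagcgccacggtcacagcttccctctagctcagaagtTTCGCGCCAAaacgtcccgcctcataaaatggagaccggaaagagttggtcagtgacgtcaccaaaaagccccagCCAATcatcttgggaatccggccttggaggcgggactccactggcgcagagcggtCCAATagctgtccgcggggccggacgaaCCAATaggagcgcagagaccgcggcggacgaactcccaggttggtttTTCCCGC

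In windows of 300 bases (250 before and 50 after the start), CCAAT was found in 17 of 20 G2/M promoters (85%) and 6 of 11 G1/S promoters (54.5%), against 37.5% of all 33469 promoters of the table. TTTGAA or TTCGAA was found in 15 of 20 G2/M promoters (75%) and 3 of 11 G1/S promoters (27.3%), against 19.7% of all. The E2F cores ran the other way, with 7 of 11 G1/S promoters (63.6%) and 5 of 20 G2/M promoters (25%), against 9.52% of all. These are matches of letters and not measured binding sites.

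Without antibody, the cell cycle genes were lowest in osteocytes. Over the vehicle arrays of all 8 days (40 per cell type), with the arrays brought to the same quantiles, 33 of the 38 genes were higher and 1 lower in osteoblasts than in osteocytes, where 32.7% of all genes were higher and 32.4% lower. In lining cells 35 were higher and 0 lower than in osteocytes (31.9% and 28.1% of all genes). The median difference over the genes was 0.49 for osteoblasts and 0.46 for lining cells, and both sets of vehicle arrays stand against the same osteocyte arrays, in part from the same rats.

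The largest osteoblast over osteocyte differences were in Kif23, a kinesin of the midbody, with 0.99 (SE 0.06, adjusted p = 9.6e-30), Nusap1, a spindle microtubule protein, with 0.99 (SE 0.06, adjusted p = 3.02e-29), Bub1b, a spindle checkpoint kinase, with 0.98 (SE 0.06, adjusted p = 2.99e-30), and Ttk, another checkpoint kinase, with 0.91 (SE 0.06, adjusted p = 5.18e-25). Kif20a, a kinesin of cytokinesis, was the gene lower in osteoblasts (-0.43, SE 0.05, adjusted p = 3.87e-13). In lining cells Kif23 also led with 0.93 (SE 0.06, adjusted p = 8.54e-28) over osteocytes, followed by Ccne1, cyclin E1, with 0.89 (SE 0.07, adjusted p = 2.57e-21). Osteoblasts and lining cells differed in fewer genes. Of the 38 genes, 6 were higher in osteoblasts, led by Nusap1 (0.44, SE 0.06, adjusted p = 2.35e-09), and 6 lower, led by Kif20a (-0.40, SE 0.05, adjusted p = 9.57e-11), against 17.8% and 17.9% of all genes.

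On the deposited scale, where the cell types appear to have been normalized apart, 37 of 38 genes were higher in osteoblasts than in lining cells and all 38 were higher in either than in osteocytes, but on that scale 94.0% of all genes were higher in osteoblasts than in osteocytes. Kif20a was then higher in osteoblasts, at 0.33 over osteocytes. The median over all genes on this scale was 0.67 for osteoblasts minus osteocytes and 0.42 for osteoblasts minus lining cells. On the same scale the vehicle means of the marrow lists in osteoblasts, lining cells and osteocytes were 7.64, 7.13 and 5.18 for megakaryocyte, 8.81, 8.46 and 7.77 for granulocyte and 5.66, 5.17 and 4.89 for B-lineage markers, and those of osteoclast markers 8.12, 8.33 and 8.64, which ran the other way. Their part in the difference was not tested.

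The level of the cell cycle genes also changed over the study in rats that never received antibody. Across the 8 days limma's F test called all 38 genes in osteoblasts and in lining cells and 36 of 38 in osteocytes, against 82.2%, 59.9% and 68.6% of all genes. The exceptions in osteocytes were Mcm7 (adjusted p = 0.186) and Ttk (adjusted p = 0.0669). The mean of days 197 to 309 stood above that of days 8 to 183 by a median of 0.66 over the genes in osteoblasts, 0.86 in lining cells and 0.87 in osteocytes. In 17, 32 and 32 genes of these cell types every later day lay above every dosing day. The lowest day was day 183 for 30 genes in osteoblasts and 19 in lining cells, and day 85 for 24 genes in osteocytes.

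Aurka, a kinase of the spindle poles, had vehicle means of 5.73, 5.63, 4.90, 5.26, 7.06, 6.12, 6.58 and 6.96 log2 units in osteocytes on days 8, 29, 85, 183, 197, 237, 267 and 309, and 7.15, 7.50, 6.64, 5.92, 8.18, 7.94, 7.71 and 7.36 in osteoblasts on the same days. Its lowest day was day 85 in osteocytes and day 183 in osteoblasts, and in both it stood more than 1 log2 unit higher on day 197 than on day 183. The erythroid marker mean of vehicle osteoblasts was 9.90 on day 197 and 8.18 on day 183, and that of osteocytes 8.56 on day 197 and 7.09 on day 183. The signal range of vehicle arrays was also higher on day 197 than on day 183. It was 3.53 against 2.68 in osteoblasts, 3.39 against 2.67 in lining cells and 3.36 against 2.63 in osteocytes. The part of either shift was not tested. Age, day of necropsy and any processing batch cannot be told apart over these days, and each antibody group is set against the vehicle group of its own day.

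**Figure D1:**
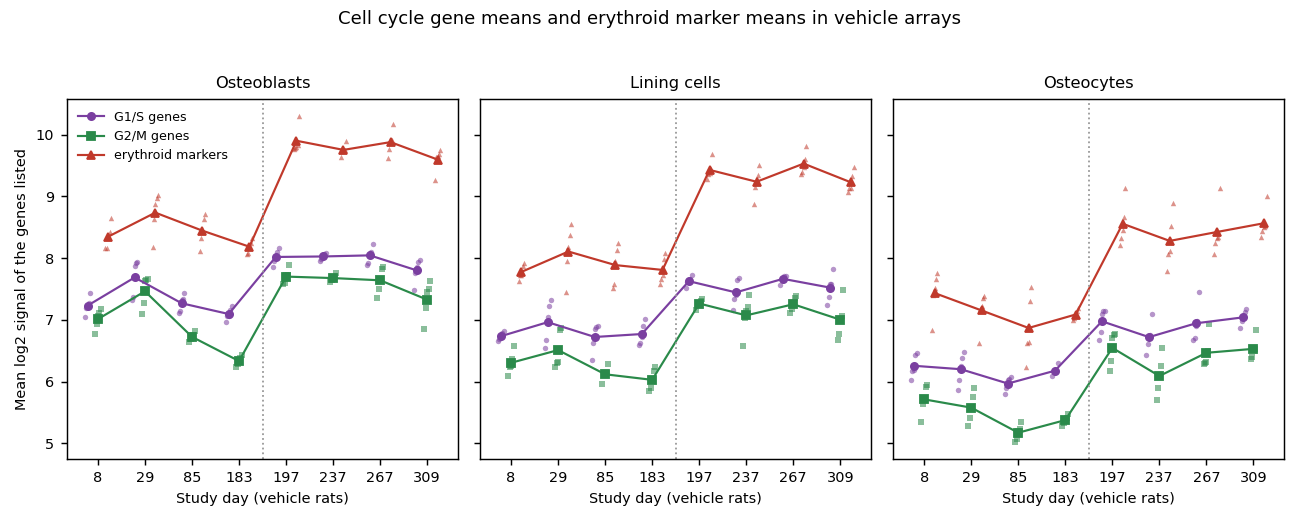
Mean log2 signal of the 13 G1/S genes, the 25 G2/M genes and the erythroid markers in vehicle arrays of each cell type by study day. Small points are arrays, large points and lines are day means, and the dotted line separates the dosing days from the days after dosing. In all 3 cell types the means of day 197 lie above those of day 183, and the G2/M mean of osteoblasts is 7.70 against 6.33.

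Within groups, the 2 classes moved together from array to array. After the mean of each group was taken off, the G1/S and G2/M means of an array correlated at r = 0.87 in osteoblasts (97 arrays), 0.86 in lining cells (100 arrays) and 0.91 in osteocytes (97 arrays). The same within-group values followed the erythroid markers, with r of 0.83, 0.81 and 0.72 for G1/S and 0.74, 0.71 and 0.75 for G2/M genes in the 3 cell types. They also followed the signal range, which the G2/M genes tracked more closely than the G1/S genes in osteoblasts (r = 0.86 and 0.64) and lining cells (r = 0.88 and 0.70), with 0.65 and 0.61 in osteocytes. In osteocytes both class means ran against the osteocyte markers (r = -0.45 for G1/S and -0.43 for G2/M). All these points share the array, its amplification and its normalization, so the correlations are a description.

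Genes differed in how far they shared this movement. Rrm1, the large subunit of ribonucleotide reductase, had a median r with the other genes of 0.48 in osteoblasts, 0.59 in lining cells and 0.65 in osteocytes. Ccnb2, a mitotic cyclin, had 0.54, 0.56 and 0.59. Mybl2 (B-Myb) was among the 5 least shared genes of each cell type, at 0.27, 0.22 and 0.12. Tk1, the thymidine kinase that salvages thymidine, was the lowest of the 38 in osteoblasts, at 0.19, and had 0.23 in lining cells and 0.46 in osteocytes. The lowest in lining cells was Kif11, a motor of the spindle, at 0.21.

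**Figure D2:**
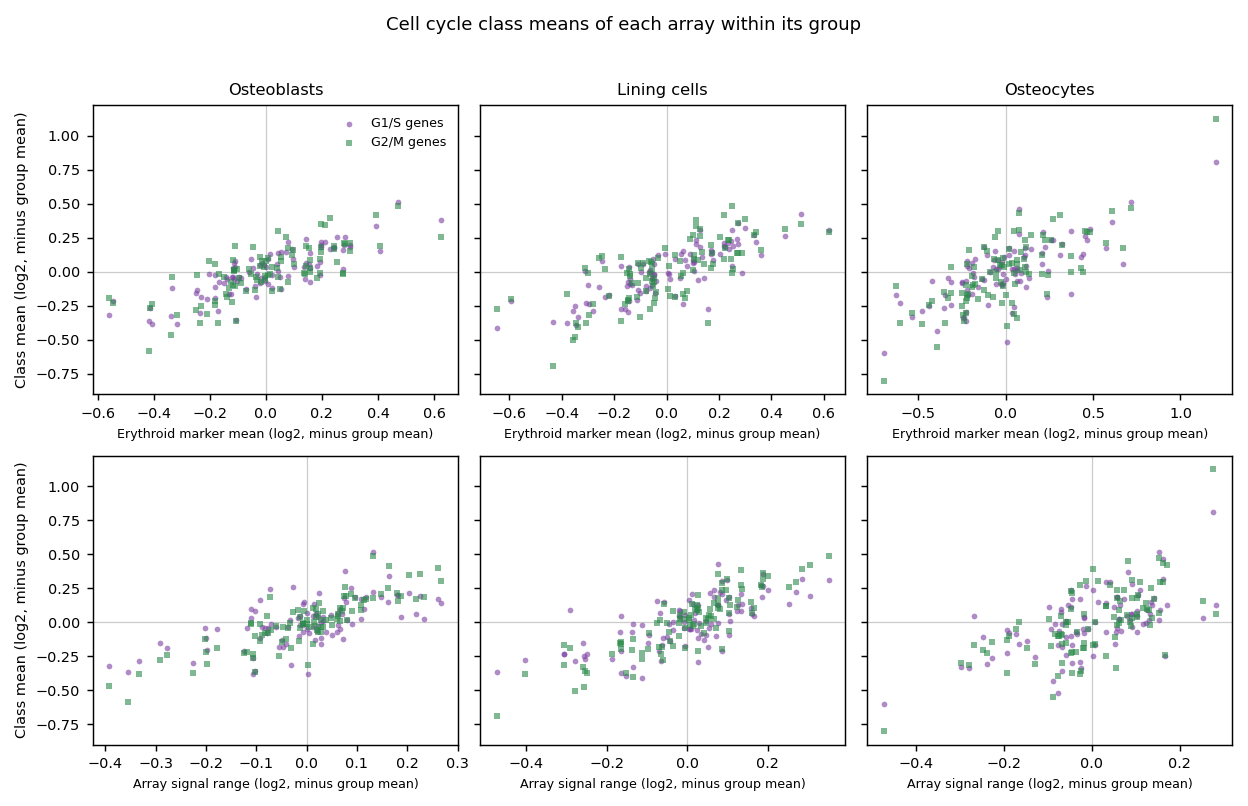
Deviation of each array's G1/S and G2/M mean from its group mean (vertical axes, log2) against the deviation of its erythroid marker mean (upper row) and of its signal range (lower row), for each cell type. Points are arrays. The clouds rise to the right in every panel, and the osteocyte array at the top right is replicate 3 of 50 mg/kg on day 309, with a G2/M mean of 6.72.

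In osteoblasts the first week of antibody came with higher cell cycle genes. On day 8, with both doses weighted equally, 6 of the 38 genes rose and 0 fell (2.52% of all genes rose and 1.11% fell), 3 of 13 G1/S genes and 3 of 25 G2/M genes, and the median change over the genes was 0.40, against 0.02 over all genes. At 50 mg/kg alone 16 rose and 0 fell (5.21% and 2.99% of all genes), 9 of 13 G1/S genes and 7 of 25 G2/M genes. At 3 mg/kg alone limma called 0 of the 38 (0.0% of all genes were higher), with 12 higher and 0 lower at an unadjusted p under 0.05 (4.64% and 2.3% of all genes). The comparison of 50 with 3 mg/kg also called 0 (0.0% of all genes higher), with 2 higher and 1 lower at an unadjusted p under 0.05 (2.75% and 3.89% of all genes). These comparisons share their arrays.

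Mybl2, the factor that prepares the G2/M programme, had signals of 32.6, 38.1, 39.1, 43.5 and 52.2 with vehicle, 56.7, 62.0, 68.3 and 94.6 with 3 mg/kg and 48.5, 71.4, 74.5, 84.6 and 125 with 50 mg/kg. All 3 mg/kg arrays and 4 of 5 arrays at 50 mg/kg lay above the highest vehicle array. The change was 0.85 (SE 0.15, adjusted p = 0.000311). Cdk1 had signals of 284, 316, 335, 346 and 365 with vehicle, 363, 381, 591 and 780.5 with 3 mg/kg and 416, 569.6, 582, 590.1 and 806 with 50 mg/kg. The 50 mg/kg arrays did not overlap the vehicle arrays, 3 of 4 arrays at 3 mg/kg lay above them, and Cdk1 rose by 0.72 (SE 0.16, adjusted p = 0.00354), a call that ended with only the compared groups in the fit (adjusted p = 0.0569). Its cyclin partner Ccnb1 had 83.8, 92.5, 119.7, 124 and 152 with vehicle, 136, 138, 204 and 321 with 3 mg/kg and 179, 207, 215, 234 and 245 with 50 mg/kg, again with no overlap between 50 mg/kg and vehicle, and rose by 0.84 (SE 0.20, adjusted p = 0.00572). Among the others, Ube2c, which feeds the ubiquitin ligase of mitotic exit, rose by 0.69 (SE 0.18, adjusted p = 0.0156), Tk1 by 0.62 (SE 0.18, adjusted p = 0.0354) and Pcna, the sliding clamp of DNA polymerases, by 0.60 (SE 0.17, adjusted p = 0.0343). Each of these 3 calls ended on leaving out any of 4 to 6 of the arrays.

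At 50 mg/kg the replication genes Rpa3, a subunit of the single-strand binding protein RPA (0.99, SE 0.29, adjusted p = 0.0198), and Mcm2, a helicase subunit (0.67, SE 0.17, adjusted p = 0.00732), rose as well, with Mcm5 (0.61), Ccne1 (0.59), Rrm1 (0.50) and Mcm7 (0.38). With both doses weighted equally, Mki67, Top2a and Mcm3 were not called. Mki67, the antigen of proliferating cells, had a change of 0.06 (SE 0.14, adjusted p = 0.89), Top2a of 0.23 (SE 0.14, adjusted p = 0.433) and Mcm3 of 0.26 (SE 0.14, adjusted p = 0.343). With vehicle, 3 mg/kg and 50 mg/kg the granulocyte mean was 8.87, 8.93 and 9.03, the megakaryocyte mean 7.79, 7.80 and 7.71, the B-lineage mean 6.29, 6.24 and 6.11 and the osteoclast mean 8.95, 8.69 and 8.18. The erythroid mean was 8.35 with vehicle, 8.76 with 3 mg/kg and 9.0 with 50 mg/kg. Osteoblast markers averaged 9.73, 9.98 and 10.01 in the same order. The signal range of these arrays was 3.48, 3.54 and 3.52. The part of these shifts was not tested. The 6 calls of both doses became 3 without vehicle replicate 5 or 3 mg/kg replicate 2 or 4, 10 without 50 mg/kg replicate 4, and 13 and 14 without 3 mg/kg replicates 3 and 1. They became 10 with the signal range as covariate and 2 in a fit without the other groups. The 16 calls at 50 mg/kg became 10 when vehicle replicate 3 was left out and 5 when 50 mg/kg replicate 2 was.

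By day 29 the direction against vehicle had turned, and most of the genes that fell act in mitosis. Of the 38 genes 0 rose and 19 fell (2.65% of all genes rose and 12.4% fell), 3 of 13 G1/S genes and 16 of 25 G2/M genes, with a median of -0.44 against -0.05 over all genes and values below 0 in 37 of 38. The 50 mg/kg dose gave 22 that fell and 0 that rose (20.6% and 7.76% of all genes), 4 of 13 G1/S genes and 18 of 25 G2/M genes. At 3 mg/kg limma called 0 (0.0438% of all genes were lower), with 0 higher and 9 lower at an unadjusted p under 0.05 (2.58% and 8.28% of all genes). The 50 minus 3 mg/kg comparison called 2 genes lower (2.66% of all genes), Ect2 (-1.10, SE 0.26, adjusted p = 0.00859) and Bub1 (-0.91, SE 0.20, adjusted p = 0.00493).

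Ect2, which activates the contractile ring of dividing cells, had signals of 26.9, 33.3, 42.2, 51.0 and 52.6 with vehicle, 14.5, 19.7, 21.5, 33.2 and 44.5 with 3 mg/kg and 7.56, 10.4, 12.3, 12.7 and 16.2 with 50 mg/kg. All 50 mg/kg arrays and 3 of 5 at 3 mg/kg lay below the lowest vehicle array. The change was -1.25 (SE 0.23, adjusted p = 0.000351). The Ect2 signals at 50 mg/kg were near the median of all probe sets on these arrays, 3.56 log2 units, where the size of a change is uncertain. Bub1, a kinase of the spindle checkpoint, had 117, 168, 169, 211 and 234 with vehicle, 94.9, 100.4, 106, 149 and 198 with 3 mg/kg and 46.6, 56.3, 71.7, 81.5 and 84.1 with 50 mg/kg, with the same pattern of overlap, and changed by -0.94 (SE 0.18, adjusted p = 0.000441). Bub1b of the same checkpoint had 119.9, 145, 147, 176 and 179 with vehicle, 81.5, 85.7, 90.5, 133 and 141 with 3 mg/kg and 63.6, 71.4, 72.3, 77.6 and 80.7 with 50 mg/kg, and changed by -0.81 (SE 0.16, adjusted p = 0.000633) with 10 of 10 treated arrays below the vehicle mean. These 3 falls held without any 1 array and under every other setting. Racgap1, the partner of Ect2 at the midzone, fell as well (-0.73, SE 0.19, adjusted p = 0.00698), and so did Mki67 (-0.46, SE 0.14, adjusted p = 0.0147).

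Of the G1/S genes Pcna had 841, 1071, 1686, 1795 and 1866 with vehicle, 733, 855, 924, 1469.6 and 1549 with 3 mg/kg and 674, 701, 785, 809.6 and 1092 with 50 mg/kg, where 4 of 5 arrays lay below the lowest vehicle array, and it fell (-0.59, SE 0.17, adjusted p = 0.0131). Mcm4 changed by -0.47 (SE 0.16, adjusted p = 0.039) and Rrm1 by -0.40 (SE 0.13, adjusted p = 0.0305). Cdk1 had -0.31 (SE 0.15, adjusted p = 0.166), Top2a -0.37 (SE 0.14, adjusted p = 0.0613) and Mcm3 -0.27 (SE 0.14, adjusted p = 0.176). The signal range of these arrays was lower with dose, at 3.53 with vehicle, 3.41 with 3 mg/kg and 3.16 with 50 mg/kg, and the erythroid mean was 8.74, 8.55 and 8.44. The megakaryocyte mean was 7.33, 7.80 and 7.98 in the same order, the granulocyte mean 8.93, 8.92 and 8.98, the B-lineage mean 6.19, 5.94 and 5.61 and the osteoclast mean 8.54, 8.35 and 7.81. Osteoblast markers averaged 9.06, 9.03 and 9.87. The part of these shifts was not tested. With the signal range as covariate limma called 3 genes in place of the 19 and 3 in place of the 22 at 50 mg/kg, and the changes of Racgap1, Pcna, Mcm4, Rrm1 and Mki67 were then between -0.19 and -0.27 and not called. The 19 calls became 7, 8 and 11 when vehicle replicate 2, 1 or 5 was left out and 11 when 3 mg/kg replicate 2 was. With quantile normalization they became 10 and those at 50 mg/kg 14, and with only the compared groups the 19 became 7. The 2 between doses became 0 to 9 on leaving out 1 array and 24 with array weights.

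On day 85 the osteoblast cell cycle genes stood close to vehicle. limma called 0 of 38 (1.26% of all genes were higher and 0.499% lower), with 0 higher and 0 lower at an unadjusted p under 0.05 (10.4% and 5.7% of all genes) and a median of 0.04. At 50 mg/kg it also called 0 (3.38% of all genes higher), with 1 higher and 0 lower at an unadjusted p under 0.05 (12.4% and 6.79% of all genes). Mki67 was at 0.01 (SE 0.14, adjusted p = 0.984), Cdk1 at 0.07 (SE 0.16, adjusted p = 0.872), Pcna at 0.26 (SE 0.17, adjusted p = 0.478), Top2a at 0.18 (SE 0.14, adjusted p = 0.571) and Mcm3 at 0.05 (SE 0.14, adjusted p = 0.915). The signal range was 3.04 with vehicle, 3.11 with 3 mg/kg and 3.22 with 50 mg/kg. In this order the erythroid mean was 8.45, 8.39 and 8.59 and the granulocyte mean 8.72, 8.78 and 8.83. The megakaryocyte mean was 7.63, 7.55 and 8.54 and the B-lineage mean 5.62, 5.59 and 5.15. Osteoclast markers averaged 8.13, 8.31 and 7.42 and osteoblast markers 8.24, 8.92 and 9.43. The part of these shifts was not tested.

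On day 183, the end of dosing, 8 genes rose and 0 fell (2.27% of all genes rose and 1.02% fell), 4 of 13 G1/S genes and 4 of 25 G2/M genes, with a median of 0.32 against 0.06 over all genes. The 50 mg/kg dose alone gave 8 that rose and 0 that fell (3.28% and 1.15% of all genes). At 3 mg/kg limma called 0 (0.403% of all genes were higher), with 11 higher and 0 lower at an unadjusted p under 0.05 (8.0% and 3.88% of all genes). Mki67 had signals of 365, 385, 417, 479 and 493 with vehicle, 464, 581, 609, 645 and 651 with 3 mg/kg and 617, 699, 733, 754 and 904 with 50 mg/kg. All arrays at 50 mg/kg and 4 of 5 at 3 mg/kg lay above the highest vehicle array, and it rose by 0.63 (SE 0.14, adjusted p = 0.00302), without any 1 array as well. Mcm6, a helicase subunit, had 30.1, 34.9, 35.5, 43.2 and 48.8 with vehicle, 37.3, 38.7, 67.9, 68.8 and 99.7 with 3 mg/kg and 52.8, 55.6, 87.4, 88.9 and 93.6 with 50 mg/kg, and rose by 0.79 (SE 0.17, adjusted p = 0.00361), with no overlap between 50 mg/kg and vehicle. The Mcm6 call ended with only the compared groups in the fit (adjusted p = 0.0747). Ccna2, cyclin A2, rose by 0.71 (SE 0.20, adjusted p = 0.026), Pcna by 0.58 (SE 0.17, adjusted p = 0.0388), Aurka by 0.57 (SE 0.17, adjusted p = 0.0433) and Mcm2 by 0.51 (SE 0.15, adjusted p = 0.034). Prc1, which bundles midzone microtubules, rose by 0.42 (SE 0.12, adjusted p = 0.0332), and Rrm1 by 0.43 (SE 0.13, adjusted p = 0.0479). These 6 calls ended on leaving out any of 4 to 11 of the arrays. Cdk1 had 0.32 (SE 0.15, adjusted p = 0.252), Top2a 0.40 (SE 0.14, adjusted p = 0.0905) and Mcm3 0.14 (SE 0.14, adjusted p = 0.664).

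The signal range on day 183 was higher with dose, at 2.68 with vehicle, 2.83 with 3 mg/kg and 2.88 with 50 mg/kg, and so was the erythroid mean, at 8.18, 8.50 and 8.65. In the same order the granulocyte mean was 8.26, 8.48 and 8.79, the megakaryocyte mean 7.26, 7.28 and 8.03, the B-lineage mean 5.15, 5.09 and 4.55 and the osteoclast mean 7.56, 8.02 and 7.33. Osteoblast markers averaged 8.04, 8.34 and 8.37. The part of these shifts was not tested. With the signal range as covariate or with only the compared groups 2 of 38 genes were called, and 4 at 50 mg/kg, while array weights gave 16 and 20. The 8 calls became 2 without vehicle replicate 2 or 3, 3 without 3 mg/kg replicate 4 or 50 mg/kg replicate 2, 3 or 4, 4 without vehicle replicate 1 and 5 when 3 mg/kg replicate 3 or 5 was left out. Those at 50 mg/kg became 5 without vehicle replicate 2 or 3 or 50 mg/kg replicate 2 or 4, and 4 without 50 mg/kg replicate 3.

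**Figure D3:**
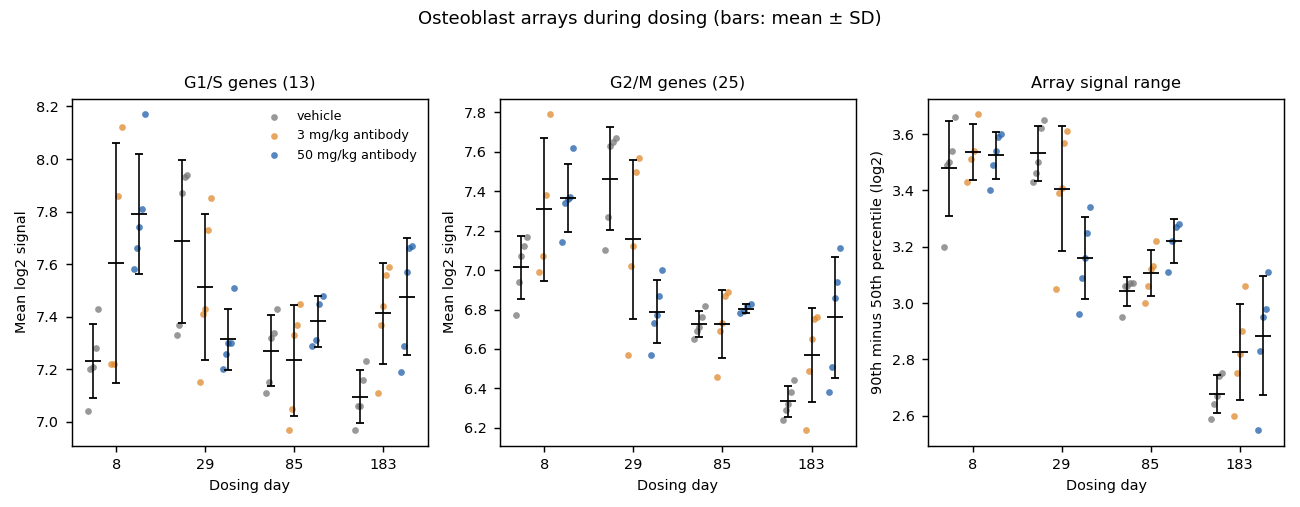
Mean log2 signal of the G1/S genes (left) and the G2/M genes (middle) and the array signal range (right) of osteoblast arrays by dosing day. Points are arrays of vehicle, 3 mg/kg and 50 mg/kg, and bars are means with SD. The G2/M mean at 50 mg/kg lies above vehicle on day 8 (7.36 against 7.01), below it on day 29 (6.79 against 7.47) and above it on day 183 (6.76 against 6.33), and the signal range moves the same way on days 29 and 183.

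The turns between days were tested as differences of the response, each day against its own vehicle arrays. The vehicle arrays moved as well. From day 8 to day 29 the G2/M mean went from 7.01 to 7.47 with vehicle, 7.3 to 7.16 with 3 mg/kg and 7.36 to 6.79 with 50 mg/kg. The G1/S mean went from 7.23 to 7.69, 7.6 to 7.51 and 7.79 to 7.32 in the same order. The osteoblast response of day 29 was lower than that of day 8 in 24 of 38 genes and higher in 0 (7.25% and 0.903% of all genes), 7 of 13 G1/S genes and 17 of 25 G2/M genes, with a median difference of -0.72. Ect2 led with -1.70 (SE 0.33, adjusted p = 0.000931), followed by Ccnb1 (-1.39, SE 0.27, adjusted p = 0.00126) and Rpa3 (-1.35, SE 0.36, adjusted p = 0.0123), and Cdk1 (-1.02, SE 0.22, adjusted p = 0.00271) and Pcna (-1.19, SE 0.24, adjusted p = 0.00167) were among them. The response of day 183 was higher than that of day 29 in 23 genes and lower in 0 (13.7% and 3.38% of all genes), led by Bub1 (1.50, SE 0.25, adjusted p = 3.13e-05), Ect2 (1.46), Ccna2 (1.42) and Pcna (1.17). That of day 85 exceeded day 29 in 7 genes (7.02% of all genes), led by Ect2 (1.08, SE 0.33, adjusted p = 0.0285) and Bub1 (1.05, SE 0.25, adjusted p = 0.00884). Days 8 and 183 differed in 1 gene (0.114% of all genes were lower), Mybl2, which was lower on day 183, with -0.89 (SE 0.21, adjusted p = 0.0238). Of the 6 genes higher on day 8 and the 8 higher on day 183, 1 was shared, Pcna. Lists of these sizes unrelated in membership would share about as many. With the signal range as covariate the counts of 24, 23 and 7 became 2, 1 and 0. Leaving out 1 array gave 2 to 14 in place of the 7, and 0 in place of the 1 without vehicle replicate 1, 3 or 5 or 3 mg/kg replicate 4 of day 8.

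After dosing had stopped, osteoblasts showed a small group of genes that was low on day 237 and high on day 309, each against vehicle. On day 237, after 50 mg/kg, 8 genes were lower and 0 higher than in vehicle (7.7% and 3.01% of all genes). On day 309, 9 were higher and 0 lower (8.63% and 1.91% of all genes). Of these, 7 were in both lists, 87.5% of the first and 77.8% of the second, with separate vehicle arrays on the 2 days: Rpa3, Mcm4, Ect2, Ccna2, Bub1, Aurkb and Kif23. How many of all genes turned in this way was not counted, so the turn cannot be called particular to cell cycle genes. Vehicle arrays moved between these days, from 5.3 to 3.92 log2 units for Ect2, 5.79 to 4.55 for Rpa3 and 5.87 to 4.83 for Ccna2. The G2/M mean went from 7.68 to 7.33 in vehicle and from 7.33 to 7.76 after 50 mg/kg. The difference in response between days 237 and 309 was not tested. Ect2 had signals of 15.0, 15.4, 16.7 and 22.7 after 50 mg/kg against 27.4, 36.4, 40.6, 47.8 and 49.8 in vehicle on day 237, with no overlap, and changed by -1.20 (SE 0.28, adjusted p = 0.00321). On day 309 it had 22.9, 23.4, 32.3, 37.2 and 98.4 after 50 mg/kg against 9.74, 11.8, 16.4, 17.6 and 24.0 in vehicle, where 3 of 5 arrays lay above the highest vehicle array. The change was 1.26 (SE 0.26, adjusted p = 0.00165). Rpa3 had 21.1, 22.3, 24.9 and 25.9 after 50 mg/kg against 42.3, 48.5, 50.0, 59.5 and 86.1 in vehicle on day 237 (-1.24, SE 0.31, adjusted p = 0.00509), and 27.8, 30.4, 51.5, 77.5 and 111 against 20.3, 20.7, 22.2, 25.5 and 30.0 on day 309 (1.14, SE 0.29, adjusted p = 0.0078). Ccna2 had 23.6, 23.7, 28.1 and 30.0 after 50 mg/kg against 39.4, 53.8, 59.3, 64.0 and 84.9 in vehicle on day 237 (-1.16, SE 0.24, adjusted p = 0.000915), and 38.5, 47.0, 68.2, 76.3 and 77.5 against 21.6, 24.1, 25.6, 37.6 and 37.6 on day 309 (1.06, SE 0.23, adjusted p = 0.002), with no overlap on either day.

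Some genes of the 38 were not called on either day or on 1 of them alone. On day 237 Cdk1 was at -0.01 (SE 0.19, adjusted p = 0.97), Mki67 at 0.07 (SE 0.17, adjusted p = 0.835) and Mcm3 at 0.13 (SE 0.17, adjusted p = 0.659), while Top2a fell (-0.50, SE 0.17, adjusted p = 0.0455). On day 309 Cdk1 was at 0.12 (SE 0.18, adjusted p = 0.712) and Mcm3 at 0.07 (SE 0.16, adjusted p = 0.825), while Mki67 rose (0.56, SE 0.16, adjusted p = 0.0142). The signal range was 3.22 after 50 mg/kg against 3.44 in vehicle on day 237 and 3.41 against 3.08 on day 309. The erythroid mean was 9.58 against 9.75 on day 237 and 9.82 against 9.6 on day 309. The megakaryocyte mean was 8.09 against 7.62 on day 237 and 7.82 against 7.54 on day 309. That of granulocyte markers was 9.11 against 8.82 and 8.90 against 8.89, and that of B-lineage markers 5.08 against 5.62 and 5.47 against 5.36. Osteoblast markers averaged 7.93 against 8.44 on day 237 and 8.6 against 8.26 on day 309. Osteoclast markers were higher on both days, at 8.64 against 8.25 and 8.41 against 7.71. The part of these markers was not tested. With the signal range as covariate the 8 calls became 3 and the 9 became 0. The 9 also became 0 with only the compared groups and 4 with quantile normalization. The 8 became 5 without vehicle replicate 4 or 50 mg/kg replicate 1, and the 9 became 3 without vehicle replicate 3 or 50 mg/kg replicate 3, 4 without vehicle replicate 4 and 14 without vehicle replicate 1. After 3 mg/kg limma called 0 on days 197 and 267 (0.00876% and 0.0% of all genes were higher). On these days there were 4 and 0 higher (1.78% and 1.85% of all genes) and 0 and 1 lower (2.18% and 1.55%) at an unadjusted p under 0.05.

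Lining cells, the flat cells of resting bone surface, showed few changes of these genes. limma called 0 of the 38 in the mean of both doses on days 8, 29, 85 and 183 (0.0603%, 0.0345%, 0.0431% and 0.0431% of all genes were higher and 0.25%, 0.00862%, 0.0345% and 0.00862% lower). There were 2, 0, 2 and 4 higher (3.56%, 2.47%, 5.08% and 3.91% of all genes) and 0, 0, 0 and 0 lower (5.71%, 2.93%, 4.98% and 2.63%) at an unadjusted p under 0.05, and medians of 0.13, -0.11, 0.09 and 0.21. Cdk1 had changes of 0.46, -0.13, 0.09 and 0.24 over these days (SE 0.19), Pcna 0.26, -0.23, 0.16 and 0.42 (SE 0.20), and Mki67 -0.12, 0.07, 0.24 and 0.21 (SE 0.15). Top2a had 0.01, -0.08, 0.12 and 0.19 (SE 0.15) and Mcm3 0.21, -0.31, -0.03 and 0.24 (SE 0.16). At 50 mg/kg limma called 0 on days 8, 29 and 85, with 4, 0 and 3 higher (4.75%, 2.83% and 5.54% of all genes) and 1, 0 and 0 lower (6.96%, 2.35% and 7.84%) at an unadjusted p under 0.05. Between days limma called a different response in 0 of the 38 genes, with 0 higher and 3 lower at an unadjusted p under 0.05 (3.47% and 2.98% of all genes) for day 29 minus day 8 and 8 higher and 0 lower at an unadjusted p under 0.05 (3.37% and 2.21% of all genes) for day 183 minus day 29.

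At 50 mg/kg on day 183, 1 gene rose (0.81% of all genes). Prc1 had signals of 267, 289, 313, 328 and 362 with vehicle, 320.2, 345, 383, 417 and 509.8 with 3 mg/kg and 405, 448, 478, 523 and 597 with 50 mg/kg, with no overlap between 50 mg/kg and vehicle, and rose by 0.65 (SE 0.17, adjusted p = 0.0305), a call that ended without vehicle replicate 1, 3 or 5 or 50 mg/kg replicate 3, 4 or 5. Array weights gave 7 calls in place of the 1. After dosing, 2 genes were higher on day 267 after 3 mg/kg (1.02% of all genes). Rpa3 had 53.6, 73.4, 74.7, 96.9 and 102 after 3 mg/kg against 16.4, 26.4, 28.7, 30.8 and 51.8 in vehicle, with no overlap (1.44, SE 0.23, adjusted p = 0.000163), and Ect2 had 21.4, 23.8, 31.8, 43.8 and 54.0 against 11.8, 13.6, 15.1, 20.1 and 25.4, where 3 of 5 lay above the highest vehicle array (0.99, SE 0.27, adjusted p = 0.0487). The Rpa3 call held without any 1 array, and that of Ect2 ended on leaving out any of 6 arrays. Array weights gave 6 calls in place of the 2. On day 237 after 50 mg/kg 1 gene was higher (0.526% of all genes), Tk1, with 659.6, 782, 829.5, 1107 and 1129 after 50 mg/kg against 419, 465, 522, 618 and 618 in vehicle and no overlap (0.76, SE 0.19, adjusted p = 0.0212). Of the 38 genes 14 had values above 0, the median was -0.12, and there were 2 higher and 7 lower at an unadjusted p under 0.05 (5.91% and 9.28% of all genes). With array weights 1 gene was higher and 4 were lower. The mean of the Tk1 probe sets gave 0.27 (adjusted p = 0.371), and the Tk1 call ended without vehicle replicate 2 or 4 or 50 mg/kg replicate 2 or 5. On days 197 and 309 limma called 0, with 2 and 0 higher (1.4% and 3.78% of all genes) and 1 and 8 lower (3.8% and 6.93%) at an unadjusted p under 0.05. The 0 of day 309 became 1 or 2 on leaving out some arrays.

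In osteocytes, the cells buried in bone that make sclerostin, some cell cycle genes were lower at 50 mg/kg on days 29, 85 and 183, and none was called at 3 mg/kg on a dosing day. On day 8 limma called 0 of 38 at 50 mg/kg (0.616% of all genes were lower), with 0 higher and 1 lower at an unadjusted p under 0.05 (3.68% and 8.8% of all genes). Against vehicle, 15 genes fell on day 29 (3.26% of all genes), 11 on day 85 (3.5%) and 9 on day 183 (1.45%), and 0 rose on any of these days (of all genes 3.24%, 6.64% and 4.93% rose). They were 2, 5 and 4 of the 13 G1/S genes and 13, 6 and 5 of the 25 G2/M genes, with medians of -0.66, -0.64 and -0.46 against -0.02, 0.02 and 0.00 over all genes. At 3 mg/kg limma called 0 on every dosing day, with 0, 1, 2 and 0 higher (0.987%, 1.78%, 9.2% and 2.55% of all genes) and 0, 0, 1 and 0 lower (1.64%, 1.84%, 4.81% and 2.08%) at an unadjusted p under 0.05 on days 8, 29, 85 and 183.

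With both doses weighted equally, 3 genes fell on day 85 (1.87% of all genes), Kif20a (-0.72, SE 0.22, adjusted p = 0.0306), Bub1b (-0.70, SE 0.19, adjusted p = 0.0165) and Ttk (-0.56, SE 0.16, adjusted p = 0.0187), and limma called 0 on days 8, 29 and 183. These 3 days had 0, 0 and 0 higher (2.03%, 4.48% and 7.93% of all genes) and 0, 9 and 7 lower (5.34%, 4.94% and 4.31%) at an unadjusted p under 0.05. In this mean none of the following was called. Pcna had changes of 0.26, -0.14, -0.09 and 0.10 on days 8, 29, 85 and 183 (SE 0.21 on day 8) and Mki67 -0.32, -0.12, -0.14 and -0.15 (SE 0.21 on day 8). Cdk1 had 0.14, -0.27, -0.60 and -0.33, Top2a -0.17, -0.33, -0.35 and -0.30, and Mcm3 0.02, -0.41, -0.64 and -0.48. The 3 calls became 1 without vehicle replicate 2, 6 without vehicle replicate 1 and 5 when 3 mg/kg replicate 5 was left out. They became 7 with quantile normalization, 10 with the signal range as covariate and 0 with array weights or only the compared groups.

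Mcm3, a subunit of the replicative helicase, was called on all 3 days. On day 29 Mcm3 had signals of 86.6, 86.9, 113, 123 and 159 with vehicle, 81.8, 116, 127 and 146 with 3 mg/kg and 39.3, 53.1, 60.7, 62.0 and 102 with 50 mg/kg. On day 85 Mcm3 had signals of 66.8, 68.0, 77.7, 82.6 and 101 with vehicle, 42.7, 60.1, 65.2, 70.1 and 90.2 with 3 mg/kg and 21.5, 52.6 and 56.0 with 50 mg/kg. On day 183 Mcm3 had signals of 119, 121, 125, 127 and 128 with vehicle, 80.4, 118, 120.3, 136 and 161 with 3 mg/kg and 58.5, 58.6, 63.2, 67.5 and 85.5 with 50 mg/kg. The 50 mg/kg arrays lay below the lowest vehicle array in 4 of 5, 3 of 3 and 5 of 5 cases on the 3 days, and the 3 mg/kg arrays overlapped vehicle on each. The changes at 50 mg/kg were -0.88 (SE 0.23, adjusted p = 0.00855), -0.98 (SE 0.27, adjusted p = 0.00901) and -0.91 (SE 0.23, adjusted p = 0.00576). The day 29 call ended without vehicle replicate 1 or 50 mg/kg replicate 3 (adjusted p = 0.0576 and 0.0745), and the day 85 call without 50 mg/kg replicate 2 (adjusted p = 0.287).

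Cdk1 was likewise lower on all 3 days. On day 29 Cdk1 had signals of 72.6, 119.5, 162, 194 and 233 with vehicle, 134, 167, 176 and 219.7 with 3 mg/kg and 70.5, 71.6, 74.8, 76.6 and 143 with 50 mg/kg. On day 85 Cdk1 had signals of 105, 105, 125, 145 and 152 with vehicle, 110.0, 113, 120, 129 and 151 with 3 mg/kg and 45.0, 57.6 and 64.2 with 50 mg/kg. On day 183 Cdk1 had signals of 143, 148, 154, 155 and 161 with vehicle, 132, 152, 152, 153 and 186 with 3 mg/kg and 51.4, 71.4, 106, 122 and 158 with 50 mg/kg. On day 29 2 of 5 arrays at 50 mg/kg lay below the lowest vehicle array, on day 85 all lay below both other groups, and on day 183 the highest of them overlapped vehicle. The changes were -0.79 (SE 0.22, adjusted p = 0.0164), -1.18 (SE 0.26, adjusted p = 0.000794) and -0.69 (SE 0.22, adjusted p = 0.0444), and the call of day 183 ended on leaving out any of 7 arrays. Top2a was lower too, with 36.2, 36.4, 40.8, 41.0 and 46.1 with vehicle, 33.6, 41.3, 44.0 and 44.5 with 3 mg/kg and 20.8, 24.8, 25.9, 26.2 and 27.2 with 50 mg/kg on day 29, where the 50 mg/kg arrays lay below all others. It changed by -0.68 (SE 0.18, adjusted p = 0.00801) on day 29, -0.76 (SE 0.21, adjusted p = 0.00825) on day 85 and -0.58 (SE 0.18, adjusted p = 0.0318) on day 183. Kif20a fell on the same 3 days, by 0.85, 1.24 and 0.84 on the log2 scale. Bub1b fell on day 85 (-1.24, SE 0.25, adjusted p = 0.000203), Ccnb2 on day 29 (-0.95, SE 0.25, adjusted p = 0.00724) and Tk1 on day 183 (-1.05, SE 0.24, adjusted p = 0.0018). Pcna, in contrast, was at -0.33 (SE 0.24, adjusted p = 0.499), -0.15 (SE 0.28, adjusted p = 0.803) and -0.06 (SE 0.24, adjusted p = 0.941) at 50 mg/kg.

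The counts moved with single arrays. The 15 of day 29 became 1, 5 and 9 when 50 mg/kg replicate 3, 4 or 2 was left out, and 3, 8 and 5 when vehicle replicate 1, 2 or 5 was. Array weights gave 24 and only the compared groups 8. The 11 of day 85 became 6 without 50 mg/kg replicate 2, 1 with array weights and 2 with only the compared groups, but 20 with quantile normalization and 22 with the signal range as covariate. The 9 of day 183 became 4 and 2 without 50 mg/kg replicates 2 and 5, but 17 with quantile normalization, 20 with the signal range as covariate and 18 with array weights. Between days limma called a different osteocyte response in 0 genes, with 0 higher and 3 lower at an unadjusted p under 0.05 (4.01% and 2.12% of all genes) for day 29 minus day 8.

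The doses were compared over all 4 dosing days, and osteocytes had lower cell cycle genes at the higher dose. In the mean of the dosing days 31 of the 38 genes were lower at 50 than at 3 mg/kg in osteocytes and 0 were higher (8.12% of all genes were lower and 6.84% higher), 10 of 13 G1/S genes and 21 of 25 G2/M genes, with a median of -0.52 against -0.01 over all genes. The 7 genes not called were Pcna, Mcm4 and Rpa3 of G1/S and Bub1, Ccna2, Cdkn3 and Ect2 of G2/M. Among them Ccna2, Ect2, Mcm4 and Rpa3 lay near the median of all probe sets, where a fall has little room to show. In vehicle osteocytes of day 85 they were at 2.48, 2.52, 2.79 and 3.23 log2 units, with a mean array median of 3.07. Ttk (3.06) and Tyms (3.07) were as low and were called. Values were below 0 in 34, 38, 37 and 37 of the 38 genes on days 8, 29, 85 and 183, and in 33 genes on all 4 days. Leaving out any 1 array gave 29 to 32 calls, and the other settings 31 to 33.

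Cdk1 led with -0.77 (SE 0.12, adjusted p = 5.33e-07), followed by Plk1, the polo kinase of mitotic entry (-0.76, SE 0.13, adjusted p = 8.91e-06), Nusap1 (-0.74, SE 0.14, adjusted p = 5.76e-05) and Cks2, a subunit of the Cdk1 complex (-0.74, SE 0.13, adjusted p = 1.21e-05). Of the G1/S genes Ccne1 (-0.65, SE 0.15, adjusted p = 0.000628), Tk1 (-0.61, SE 0.13, adjusted p = 0.0002), Rrm1 (-0.58, SE 0.11, adjusted p = 5.75e-05) and Mcm2 (-0.54, SE 0.13, adjusted p = 0.00131) led. Top2a changed by -0.58 (SE 0.09, adjusted p = 2.3e-06), Mki67 by -0.57 (SE 0.13, adjusted p = 0.000818) and Mcm3 by -0.52 (SE 0.12, adjusted p = 0.000949), and Pcna was at -0.23 (SE 0.13, adjusted p = 0.242). By day, limma called 0, 13, 14 and 6 genes lower on days 8, 29, 85 and 183 (0.0169%, 3.25%, 3.09% and 0.616% of all genes), with 0 higher and 2 lower at an unadjusted p under 0.05 (2.34% and 4.85% of all genes) on day 8. Plk1 on day 29 had signals of 37.0, 42.3, 52.9, 54.8 and 64.7 with vehicle, 56.6, 58.7, 75.6 and 85.6 with 3 mg/kg and 16.2, 24.4, 25.2, 35.4 and 46.6 with 50 mg/kg, and the 50 mg/kg arrays lay below all 3 mg/kg arrays (-1.30, SE 0.27, adjusted p = 0.0006 between the doses). The counts of single days moved with 1 array, from 13 to between 3 and 7 without 3 mg/kg replicate 1, 3 or 4 or 50 mg/kg replicate 3 or 4 on day 29, from 14 to 6 and 9 without 50 mg/kg replicates 2 and 3 on day 85, and from 6 to between 1 and 11 on day 183. Array weights gave 24, 3 and 16 on these days and only the compared groups 5 and 3 on days 29 and 85, and on day 183 quantile normalization gave 13 and the covariate 12.

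In osteoblasts and lining cells limma called 0 of the 38 between the doses in the mean of the dosing days (1.13% of all genes were lower in osteoblasts and 0.302% in lining cells). Osteoblasts had 1 higher and 3 lower at an unadjusted p under 0.05 (7.36% and 7.77% of all genes) and lining cells 3 higher and 1 lower at an unadjusted p under 0.05 (6.51% and 6.29% of all genes), with medians of 0.03 and 0.07. In osteoblasts 2 genes were called without 50 mg/kg replicate 3 of day 183. The difference between cell types in the dose effect was not tested.

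Beside these genes, the osteocyte markers were higher at 50 mg/kg on days 29, 85 and 183, and the marrow lists differed among themselves. On day 29 the erythroid mean was 7.16 with vehicle (6.62 to 7.39), 7.16 with 3 mg/kg (6.91 to 7.62) and 7.03 with 50 mg/kg (6.81 to 7.12), and the granulocyte mean 7.58 with vehicle (7.46 to 7.77), 7.71 with 3 mg/kg (7.57 to 7.89) and 6.99 with 50 mg/kg (6.21 to 7.64). The B-lineage mean was 4.97, 4.84 and 4.31 in the same order on day 29, 4.80, 4.61 and 4.29 on day 85 and 4.49, 4.42 and 4.10 on day 183, and the megakaryocyte mean 4.98, 4.87 and 4.91, 4.77, 4.87 and 4.90 and 5.03, 5.14 and 4.91 on these days. The osteoclast mean was 8.54, 8.55 and 8.09 on day 29, 8.43, 8.66 and 7.49 on day 85 and 8.18, 8.44 and 7.81 on day 183. The osteocyte markers were higher with dose, at 5.62 with vehicle (5.2 to 5.84), 5.76 with 3 mg/kg (5.41 to 5.99) and 6.54 with 50 mg/kg (6.26 to 6.84) on day 29, and at 5.74, 5.86 and 6.63 on day 85 and 5.09, 5.58 and 6.21 on day 183. The erythroid means were 6.87, 7.05 and 6.66 on day 85 and 7.09, 7.27 and 6.81 on day 183. Those of granulocyte markers were 7.32, 7.32 and 7.01 on day 85 and 7.39, 7.39 and 7.13 on day 183. Osteoblast markers averaged 9.42, 9.36 and 9.75 on day 29. They were at 9.17, 9.21 and 8.61 on day 85 and 8.66, 8.88 and 8.39 on day 183. The signal range was 2.93, 2.94 and 2.90 on day 29. It was 2.68, 2.79 and 2.76 on day 85 and 2.63, 2.72 and 2.76 on day 183. On day 8 it was 3.2, 3.18 and 3.07, and the osteocyte markers were at 5.68, 5.8 and 6.05. The part of marrow cells, signal range and a larger share of osteocyte RNA in the lower cell cycle signal was not tested.

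Osteocyte cell cycle genes were also lower than in vehicle after dosing with 50 mg/kg had ended. On day 237, 29 of the 38 genes were lower than in vehicle and 0 higher (6.16% and 7.04% of all genes), 8 of 13 G1/S genes and 21 of 25 G2/M genes, with a median of -0.77 against -0.01 over all genes. On day 309, 28 were lower and 0 higher (11.0% and 5.36% of all genes), 9 of 13 G1/S genes and 19 of 25 G2/M genes, with a median of -0.87 against -0.01. All 38 values were below 0 on both days. The 2 lists, which have separate vehicle arrays, shared 21 genes. Each list holds most of the 38 genes, and lists unrelated in membership would share about as many.

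On day 237 Ccnb2 had signals of 78.5, 90.1, 112, 142 and 183 after 50 mg/kg against 218, 267, 286, 315 and 444 in vehicle, with no overlap (-1.37, SE 0.25, adjusted p = 2.17e-05). Mcm3 had 46.2, 54.3, 65.1, 68.3 and 72.1 after 50 mg/kg against 108, 119.6, 127, 141 and 146 in vehicle (-1.08, SE 0.23, adjusted p = 0.00039), and Cdk1 135 to 203 after 50 mg/kg against 234 to 417 in vehicle (-0.91, SE 0.22, adjusted p = 0.00228), both without overlap. Ccne1 had 29.9, 36.6, 45.9, 54.4 and 95.1 after 50 mg/kg against 94.9, 99.9, 113, 130.3 and 142 in vehicle, and 1 array reached the vehicle range (-1.25, SE 0.28, adjusted p = 0.000655). Cks2 (-1.22, SE 0.25, adjusted p = 0.000181), Cdc20, the activator of the ubiquitin ligase of anaphase (-1.19, SE 0.33, adjusted p = 0.00697), Mybl2 (-0.96, SE 0.18, adjusted p = 3.32e-05) and Foxm1, the other factor of the G2/M programme (-0.93, SE 0.24, adjusted p = 0.00397), fell as well. Pcna was at -0.64 (SE 0.24, adjusted p = 0.0609).

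On day 309 Ccna2 had the largest fall of the 38, with signals of 6.03, 6.55, 8.75, 9.17 and 23.2 after 50 mg/kg against 22.9, 28.0, 33.3, 33.3 and 42.5 in vehicle (-1.73, SE 0.25, adjusted p = 6.31e-07), and 4 of 5 arrays lay below the lowest vehicle array. These 4 signals were near the median of all probe sets on such arrays, 2.99 log2 units, where the size of a change is uncertain. Pcna had 346, 539, 647, 689 and 1096 after 50 mg/kg against 1416, 1441, 1508, 1537 and 1580.2 in vehicle, with no overlap (-1.27, SE 0.24, adjusted p = 7.81e-05). Kif23 had 15.8, 18.0, 23.7, 24.9 and 47.9 after 50 mg/kg against 60.8, 62.3, 70.1, 72.3 and 72.6 in vehicle (-1.49, SE 0.25, adjusted p = 7.94e-06), and Top2a 27.2, 27.5, 30.3, 34.4 and 53.1 against 56.3, 58.4, 62.8, 79.7 and 86.4 (-1.02, SE 0.18, adjusted p = 2.05e-05), both without overlap. Aurka (-1.49, SE 0.25, adjusted p = 1.09e-05), Racgap1 (-1.41, SE 0.31, adjusted p = 0.00068), Rpa3 (-1.12, SE 0.23, adjusted p = 0.000306), Mki67 (-1.15, SE 0.25, adjusted p = 0.000472) and Mcm4 (-0.88, SE 0.19, adjusted p = 0.000406) fell as well.

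The erythroid mean on day 237 was 7.41 after 50 mg/kg (7.19 to 7.63) against 8.28 in vehicle (7.80 to 8.89), and on day 309 7.65 after 50 mg/kg (6.95 to 8.85) against 8.57 in vehicle (8.35 to 9.01). On days 237 and 309 the granulocyte mean was 7.62 against 8.01 and 7.66 against 8.08. The B-lineage mean was 4.32 against 4.75 and 4.55 against 4.95, and the megakaryocyte mean 4.86 against 5.4 and 4.87 against 5.41. The osteoclast mean was higher, at 8.9 against 8.74 and 9.04 against 8.68. The signal range was 3.04 against 3.08 and 2.94 against 3.15. Osteoblast markers averaged 8.23 after 50 mg/kg against 9.26 in vehicle on day 237 and 9.48 against 8.69 on day 309. The osteocyte markers were at 6.24 after 50 mg/kg (6.12 to 6.32) against 5.15 in vehicle (4.62 to 5.66) on day 237 and at 5.67 after 50 mg/kg (5.08 to 5.97) against 4.86 in vehicle (4.46 to 5.43) on day 309. Replicate 3 of day 309 had the highest erythroid and G2/M means of its group and replicate 5 the lowest. The part of these shifts in the lower cell cycle signal was not tested. The 29 calls of day 237 became 18 when vehicle replicate 1 was left out and 19 under array weights, and the 28 of day 309 became 16 without 50 mg/kg replicate 5, 18 with the signal range as covariate and 16 with only the compared groups in the fit.

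**Figure D4:**
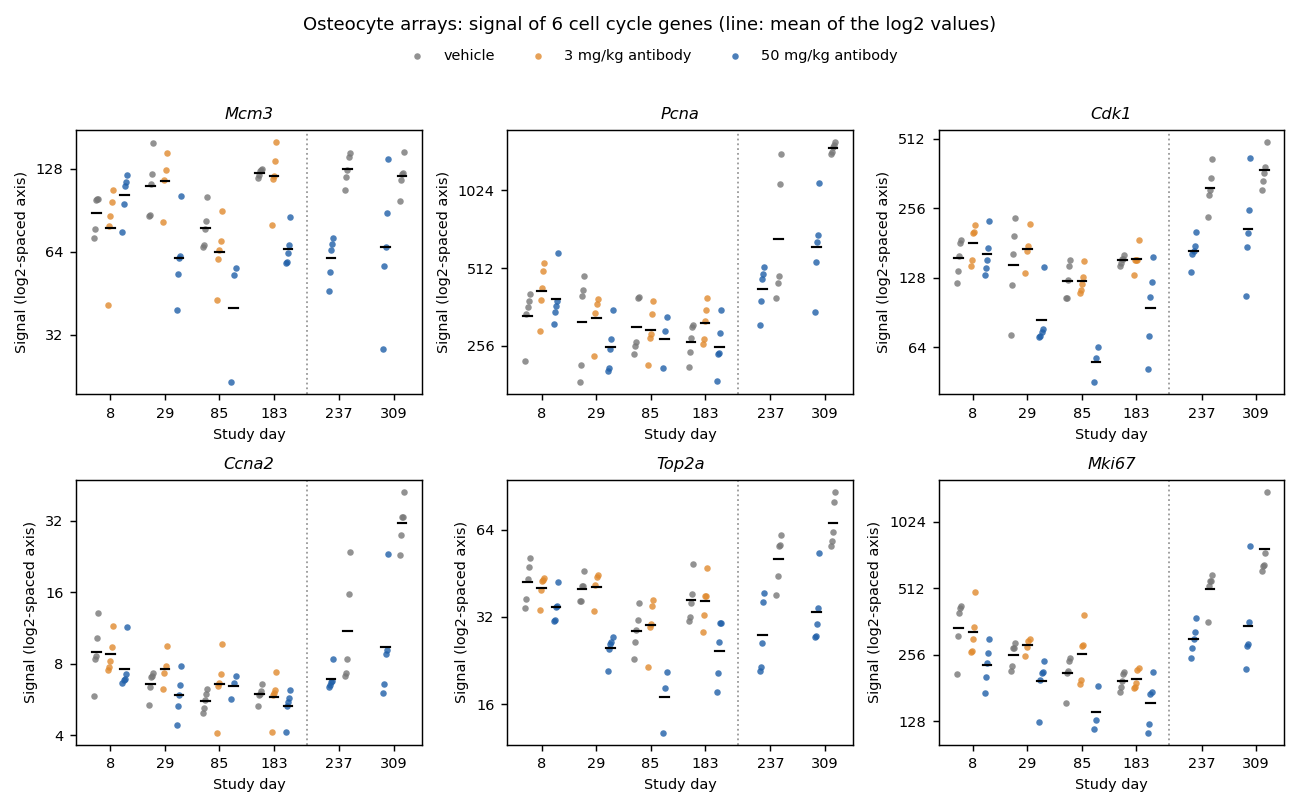
Signal (log2-spaced axes) of Mcm3, Pcna, Cdk1, Ccna2, Top2a and Mki67 on each osteocyte array of vehicle, 3 mg/kg and 50 mg/kg rats by study day. Lines are means of the log2 values, and the dotted line marks the end of dosing. On day 309 all 5 Pcna arrays after 50 mg/kg lie between 346 and 1096, below the lowest vehicle array at 1416.

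After 3 mg/kg few osteocyte genes changed. On day 197, 2 were lower (1.1% of all genes), Ect2 (-1.21, SE 0.24, adjusted p = 0.00219) and Rpa3 (-0.87, SE 0.23, adjusted p = 0.034), the second of which was not called on leaving out any of 6 arrays. On day 267, 1 was higher (3.46% of all genes), Rpa3 (0.81, SE 0.23, adjusted p = 0.0281), with 9 of 38 values above 0 and a median of -0.23. The call ended on leaving out any of 7 arrays, and 2 were called without vehicle replicate 1. The calls were in the opposite direction with quantile normalization (1 lower), with the signal range as covariate (1 lower) and with only the compared groups (2 lower), and array weights gave 4 higher and 2 lower. On day 197 array weights gave 8, quantile normalization or the covariate 1 and only the compared groups 0. Rpa3 and Ect2 recur in several contrasts, low together in osteoblasts on day 237 and in osteocytes on day 197, and high together in osteoblasts on day 309 and in lining cells on day 267. The signal range lay on the same side of vehicle in each. In this order it was 3.22 against 3.44 in vehicle, 3.13 against 3.36, 3.41 against 3.08 and 3.44 against 3.27. Its part was not tested.

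**Figure D5:**
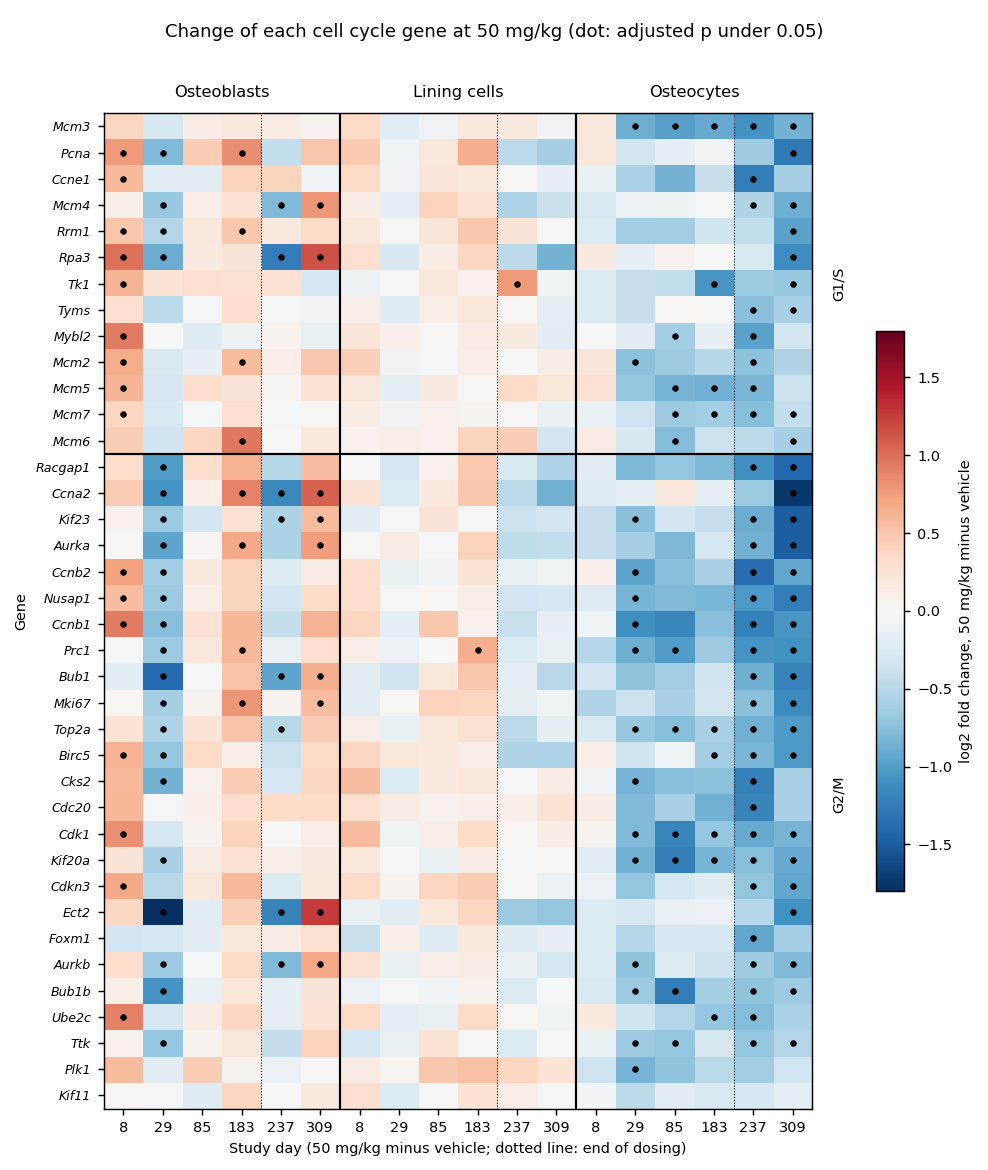
Change of each of the 38 genes at 50 mg/kg against vehicle in osteoblasts, lining cells and osteocytes by study day, as log2 fold change (red higher, blue lower). Dots mark an adjusted p under 0.05, the horizontal line separates G1/S from G2/M genes, and dotted lines mark the end of dosing. Osteoblast columns are mostly red on day 8 and blue on day 29, lining cell columns are pale, and osteocyte columns are blue from day 29 to day 309, with 29 dots on day 237 and 28 on day 309.

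Whether the response differed between cell types was tested in a fit of all arrays, with both doses weighted equally. On day 183 it was higher in osteoblasts than in osteocytes in 2 genes (0.0959% of all genes), Mcm6 (1.03, SE 0.25, adjusted p = 0.0225) and Mcm7, another helicase subunit (0.60, SE 0.16, adjusted p = 0.039), with a median of 0.58 and 24 higher and 0 lower at an unadjusted p under 0.05 (5.11% and 4.85% of all genes). On day 85 it was higher in osteoblasts than in osteocytes in 1 gene (0.696% of all genes), Kif20a (0.87, SE 0.26, adjusted p = 0.0485), and higher in lining cells than in osteocytes in 2 (0.528% of all genes), Ccnb1 (1.32, SE 0.39, adjusted p = 0.0397) and Ttk (0.78, SE 0.23, adjusted p = 0.0414). The 3 calls of day 85 ended with array weights, which gave 14 in place of the 2 on day 183. With quantile normalization the counts of day 85 were 3 and 7. In the other pairs and days limma called 0. Among them was lining cells minus osteocytes on day 183, with 14 higher and 0 lower at an unadjusted p under 0.05 (3.56% and 4.83% of all genes). Another was osteoblasts minus osteocytes on day 8, with 9 higher and 0 lower at an unadjusted p under 0.05 (4.01% and 1.21% of all genes).

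A separate list of other cell cycle genes, of which 85 were tested in osteoblasts and 82 in osteocytes, was counted in the same comparisons, with the shares of all genes in brackets. In osteoblasts there were 9 higher and 0 lower (2.52% and 1.11%) on day 8, 0 higher and 26 lower (2.65% and 12.4%) on day 29, 2 higher and 0 lower (1.26% and 0.499%) on day 85 and 4 higher and 0 lower (2.27% and 1.02%) on day 183 with both doses weighted equally. After 50 mg/kg osteoblasts had 2 higher and 19 lower (3.01% and 7.7%) on day 237 and 12 higher and 1 lower (8.63% and 1.91%) on day 309. In osteocytes there were 0 higher and 44 lower (6.84% and 8.12%) at 50 against 3 mg/kg in the mean of the dosing days, 0 higher and 43 lower (7.04% and 6.16%) after 50 mg/kg on day 237 and 0 higher and 43 lower (5.36% and 11.0%) on day 309. The medians of this list were -0.32, -0.59 and -0.55 in these 3 osteocyte comparisons.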

How the data were processed

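RNA from laser-captured bone cells was amplified and read on Affymetrix rat arrays, and the deposited values are linear intensities (2.94 to 28282). The submitters' processing notes name Affymetrix Expression Console, RMA, R 3.0.1 and affy 1.38.1. Which arrays were normalized together is not stated in the sources used here, and the cell types appear to have been normalized apart, because their quantiles differ.

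Intensities were taken to log2. Of 31042 probe sets, 20826 were annotated to 1 gene alone (14217 genes), 436 to several and 9780 to none. Each gene was read from its probe set with the highest mean. Genes above their array's median in at least 5 arrays were tested, 11412 in osteoblasts, 11600 in lining cells and 11859 in osteocytes, and all 38 members passed. limma 3.58.1 (R 4.3.3) fitted 1 mean per treatment and day in each cell type, with Benjamini-Hochberg adjustment over all genes tested at 0.05. Responses between cell types were tested over all arrays, and vehicle arrays of the cell types after quantile normalization. limma was tested on simulated data. The number of arrays limits the precision.

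Each comparison names up to 4 members per class and direction with the largest called change, and always Mki67, Top2a, Cdk1, Pcna and Mcm3 on dosing days. The members and lists were chosen with earlier results of these data known. Alternatives were quantile normalization, the signal range as covariate, array weights, no filter, the mean of probe sets, only the compared groups in the fit, and leaving out arrays. Leaving out each array for the response between days was added after seeing the data.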

Additional observations from a re-analysis of the deposited data

Results flagged for a closer look

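In osteoblasts the response to antibody differed between days by limma's interaction contrasts: 24 of the 38 genes were lower on day 29 than on day 8, 23 were higher on day 183 than on day 29, 7 were higher on day 85 than on day 29, and 1 was lower on day 183 than on day 8. Between cell types, the response was higher in osteoblasts than in osteocytes in 1 gene on day 85 and 2 on day 183, and higher in lining cells than in osteocytes in 2 on day 85.

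Among groups of 4 or 5 arrays, 1 array stood apart from the others of its group in 5 of 177 tests of the G1/S mean, the G2/M mean and the signal range, where chance gives about 8.8. The G2/M mean was 6.07 in lining cells at 3 mg/kg on day 85, replicate 3, with the others between 6.29 and 6.36. It was 5.05 in osteocytes at 3 mg/kg on day 183, replicate 4, with the others between 5.39 and 5.47. The signal range was 2.61 in lining cells at 50 mg/kg on day 8, replicate 3 (others 3.06 to 3.20), 2.66 in osteocytes at 3 mg/kg on day 29, replicate 2 (others 3.02 to 3.05), and 2.95 in vehicle osteoblasts on day 85, replicate 4 (others 3.06 to 3.07).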

How the results depend on the processing

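Counts are of the 38 genes called. Leaving out the arrays of outlying signal range kept all 51 counts within 1.5 times, no filter 79 of 81, the mean of probe sets 52 of 54, quantile normalization 56 of 78, the signal range as covariate 51 of 78, array weights 52 of 81 and only the compared groups 35 of 51. The osteocyte count of 31 between the doses over the dosing days stayed within this bound under every setting run. The cause of the changes below was not tested, except that only the compared groups leaves fewer arrays in the fit.

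With the signal range as covariate, osteoblasts had 10 on day 8, 3 on day 29 (3 at 50 mg/kg, 0 between doses), 1 at 50 mg/kg on day 85, 2 on day 183 (4 at 50 mg/kg), 3 on day 237, 0 on day 309, 1 between doses over the dosing days, and 2, 0 and 1 for day 29 minus 8, 85 minus 29 and 183 minus 29. Lining cells had 2 at 50 mg/kg on day 8, 1 between doses on day 85 and over the dosing days, and 1 on day 267. Osteocytes had 10 on day 85 (22 at 50 mg/kg), 1 on day 183 (20 at 50 mg/kg, 12 between doses), 1 on day 197, 1 in the opposite direction on day 267 and 18 on day 309. Lining cells minus osteocytes had 7 on day 85 and 3 on day 183.

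With quantile normalization, osteoblasts had 10 on day 29 (14 at 50 mg/kg), 1 at 50 mg/kg on day 85, 4 on day 309, 1 between doses over the dosing days, and 3, 14 and 2 for day 85 minus 29, 183 minus 29 and 183 minus 8. Lining cells had 0 at 50 mg/kg on day 183, 1 on day 267 and 2 on day 309. Osteocytes had 7 on day 85 (20 at 50 mg/kg), 4 on day 183 (17 at 50 mg/kg, 13 between doses), 1 on day 197, 1 in the opposite direction on day 267 and 1 for day 183 minus 8. Osteoblasts minus osteocytes had 3 on day 85, and lining cells minus osteocytes 7 on day 85 and 2 on day 183.

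With array weights, osteoblasts had 24 between doses on day 29, 16 on day 183 (20 at 50 mg/kg), 1 between doses over the dosing days and 4, mostly in the opposite direction, for day 183 minus 8. Lining cells had 1 on day 8 (1 at 50 mg/kg), 1 on day 183 (7 at 50 mg/kg), 6 on day 267 and 5, mostly in the opposite direction, on day 237. Osteocytes had 1 at 50 mg/kg on day 8, 24 at 50 mg/kg on day 29 (24 between doses), 0 on day 85 (1 at 50 mg/kg, 3 between doses), 2 on day 183 (18 at 50 mg/kg, 16 between doses), 8 on day 197, 6 on day 267, 19 on day 237 and 1 for day 183 minus 8. Osteoblasts minus osteocytes had 1, 0 and 14 on days 29, 85 and 183, and lining cells minus osteocytes 0 and 7 on days 85 and 183.

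With only the compared groups, osteoblasts had 2 on day 8, 7 on day 29 (0 between doses), 2 on day 183 (4 at 50 mg/kg) and 0 on day 309. Lining cells had 2 at 50 mg/kg on day 183. Osteocytes had 8 at 50 mg/kg on day 29 (5 between doses), 0 on day 85 (2 at 50 mg/kg, 3 between doses), 1 on day 183, 0 on day 197, 2 in the opposite direction on day 267 and 16 on day 309. No filter gave 1 in lining cells on day 267 and 0 for osteoblasts minus osteocytes on day 85. The mean of probe sets gave 1 on day 267 and 0 on day 237 in lining cells. On the deposited scale 37 genes differed between osteoblasts and lining cells in vehicle. The genes lower in osteoblasts then turned, with osteoblast minus lining cell differences of 0.09 for Kif20a, 0.26 for Aurkb, 0.30 for Foxm1, 0.37 for Birc5, 0.20 for Mybl2 and 0.31 for Mcm6, and 0.33 for Kif20a over osteocytes.

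Leaving out 1 array gave these ranges. Osteoblasts had 3 to 14 on day 8 (5 to 19 at 50 mg/kg), 7 to 24 on day 29 (18 to 26 at 50 mg/kg, 0 to 9 between doses), 2 to 12 on day 183 (4 to 12 at 50 mg/kg), 5 to 8 on day 237, 3 to 14 on day 309, 0 to 2 between doses over the dosing days, and 16 to 30, 2 to 14, 19 to 29 and 0 to 1 for day 29 minus 8, 85 minus 29, 183 minus 29 and 183 minus 8. Lining cells had 0 to 1 at 50 mg/kg on day 183, 1 to 3 on day 267, and 0 to 2 on days 237 and 309. Osteocytes had 1 to 21 at 50 mg/kg on day 29 (3 to 17 between doses), 1 to 6 on day 85 (6 to 13 at 50 mg/kg, 6 to 19 between doses), 2 to 11 at 50 mg/kg on day 183 (1 to 11 between doses), 1 to 3 on day 197, 0 to 2 on day 267, 18 to 31 on day 237, 16 to 34 on day 309 and 29 to 32 between doses over the dosing days. This was not run for the responses between cell types and the vehicle comparisons. No paired analysis was possible because the replicate numbers follow accession order and the labels do not name the rats.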
